A study of Mus musculus with 4 samples.

Results

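The genes described here encode the nuclear share of the mitochondrial respiratory chain and its ATP synthase. They were taken as the protein-coding genes whose symbol begins with Nduf, Uqcr, Cox4 to Cox8 or Atp5, or is Sdha, Sdhb, Sdhc, Sdhd or Cyc1, and which had at least 1 count in any library. Of 95 genes with such symbols, 91 had counts, out of 26144 genes with counts in all. The 4 without counts were Cox7b2, Cox8b, Cox8c and a second annotated Atp5o locus. The rule used names and not the response to treatment.

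RNA sequencing had been carried out on intestinal organoids, epithelial cultures grown from intestine, from wild type C57BL/6 mice aged 8 to 12 weeks. The tested organoids had received SGC-CBP30 (2 libraries), a small molecule that occupies the bromodomains of the acetyltransferases CBP and p300, and the others vehicle (2 libraries). Every organoid had been irradiated with 8 Gy, and RNA was taken 36 hours later, so the data hold no unirradiated control. The treatment field of SGC-CBP30 replicate 2 reads SGC-CBP31, and each complex's count of changed genes is also given without that library. The labels do not say whether replicates were separate cultures or animals, so the p-values reflect a spread between libraries that may be technical.

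The respiratory chain sits in the inner mitochondrial membrane. Complex I takes electrons from NADH and complex II takes them from succinate, both pass them through coenzyme Q to complex III, and cytochrome c carries them on to complex IV, which reduces oxygen. Complexes I, III and IV pump protons, and complex V, the ATP synthase, lets them flow back to make ATP. Complex II is encoded wholly in the nucleus and is also the succinate dehydrogenase of the citric acid cycle, whereas the other complexes combine nuclear subunits with subunits encoded in mitochondrial DNA. In the intestine these genes are active in crypt cells and in the absorptive cells that differentiate from them.

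The libraries held 16674571 and 17076724 counts for SGC-CBP30 and 18087250 and 16433117 for vehicle. Levels are given as CPM, counts scaled to library size with TMM factors, or, where genes are compared with each other, as the authors' FPKM, which also divides by gene length. The epithelial markers Epcam, Cdh1, Vil1, Krt8 and Krt18 lay between 385 and 3024 CPM in every library. The 5 immune, 6 fibroblast and muscle and 3 endothelial markers summed to at most 2.77 CPM per list and library, and Cd3e, Adgre1, Col1a1, Col1a2, Acta2, Des, Cdh5 and Kdr were at 0 in at least 1 library. The 10 enterocyte markers summed to 30532 and 28433 CPM in SGC-CBP30 libraries, against 39466 and 39701 CPM in vehicle libraries. None was at 0, and by edgeR 6 were lower and 1 higher, where 16.3% of all tested genes were lower and 13.6% higher. The higher one was Apoa4 (0.43 on the log2 scale), and Alpi, Fabp1 and Apoa1 were not called. Much of the difference in the enterocyte sum came from Sis, sucrase-isomaltase, at 6777 and 7770 CPM in SGC-CBP30 libraries, against 15107 and 15080 CPM in vehicle libraries. Markers of other epithelial cells also differed by edgeR: Krt8 (0.49), Krt18 (0.59), the goblet marker Muc2 (0.24), the enteroendocrine marker Neurog3 (1.49) and the stem cell marker Lgr5 (0.56) were higher on the log2 scale. The Paneth markers Lyz1 (-0.38) and Ang4 (-0.43), the enteroendocrine marker Tac1 (-0.62), the tuft marker Trpm5 (-0.72) and the stem cell markers Olfm4 (-1.79) and Ascl2 (-0.98) were lower. Not called by edgeR were 3 of 5 epithelial, 3 of 4 goblet and 2 of 4 enteroendocrine markers. The same held for 1 of 4 stem cell, 2 of 4 Paneth and 2 of 3 tuft markers. Over all tested genes, 30.0% were called. Muc2 ran from 0.11 to 0.35 over the alternative processings described below. The part of all these markers in the results below was not tested. In bulk RNA, fewer cells of a type and less RNA per cell cannot be told apart.

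The SGC-CBP30 libraries differed from each other along these genes. SGC-CBP30 replicate 1 lay above replicate 2 in 79 of the 89 genes that passed the low-count filter, with a median log2 ratio of 0.15, whereas vehicle replicate 1 lay above vehicle replicate 2 in 49 of 89, with a median of 0.013. Over all 14684 tested genes, SGC-CBP30 replicate 1 was above replicate 2 in 51.5%. The ratio went with gene length: with tested genes divided by length into 4 equal bins, its median was 0.084 in the shortest bin and -0.072 in the longest, against 0.0057 and -0.0043 between the vehicle libraries. The respiratory chain genes are short, with a median length of 1701 bases against 3857 for all tested genes, and 63 of the 89 fell in the shortest bin. Within each bin, however, the ratio was larger for the respiratory chain genes than for all genes of that bin, with medians from the shortest to the longest bin of 0.177, 0.139, 0.054 and 0.077 (63, 14, 9 and 3 genes), against 0.084, 0.051, 0.0022 and -0.072. This within-bin difference was not tested.

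**Figure D1:**
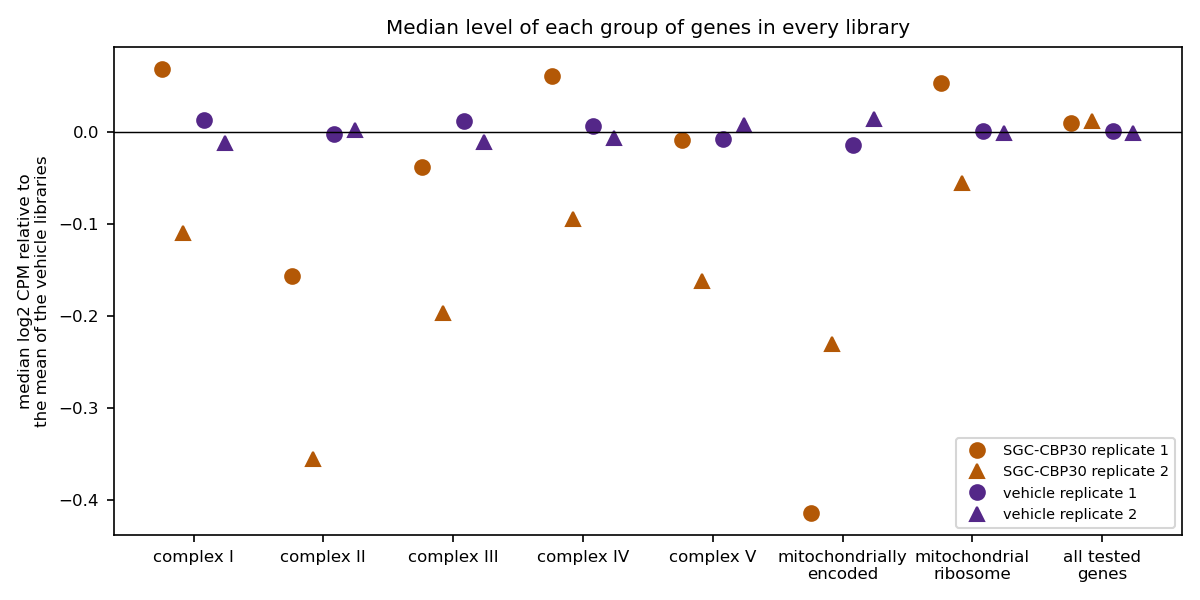
Median log2 CPM of each group of genes in every library (y axis), relative to the mean of the vehicle libraries, for complexes I to V, mitochondrially encoded subunits, mitochondrial ribosomal proteins and all tested genes (x axis). In each complex SGC-CBP30 replicate 1 (orange circle) sat above SGC-CBP30 replicate 2 (orange triangle), while the vehicle libraries (purple) lay close to 0. In complex II the SGC-CBP30 medians were -0.16 and -0.36.

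Respiratory chain genes moved little. Of 89 tested, 3 rose (3.37%) and 13 fell (14.6%) after SGC-CBP30 by edgeR's quasi-likelihood test at an adjusted p under 0.05, where 13.6% of all tested genes rose and 16.3% fell. In both directions together, 16 of 89 were called (17.98%), against 30.0% of all tested genes. No gene moved by 2-fold. The log2 fold changes, SGC-CBP30 over vehicle throughout, ran from -0.68 for Cox7a1 to 0.91 for Cox6b2, with a median of -0.05 and quartiles at -0.15 and 0.06, where the median of all tested genes was 0.01 with quartiles at -0.26 and 0.23. For 79 of the 89 the 95% interval of the change lay within 1.5-fold either way, as it did for 49.8% of all tested genes. These genes were also measured more finely, with a median standard error (SE) of 0.08 against 0.13, and their median level was 46.9 FPKM against 4.49 FPKM.

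By share of counts, the 91 genes did not separate the groups. They took 1.44% and 1.32% of all counts in the SGC-CBP30 libraries, and 1.38% and 1.37% in the vehicle libraries. Their summed CPM was 14075.9 and 12810.9 in SGC-CBP30 libraries, against 14089.3 and 14084.5 in vehicle libraries. On that scale both SGC-CBP30 sums were lower, replicate 1 only just. In 12 genes both SGC-CBP30 libraries were above both vehicle libraries, in 32 they were below, and in 45 the groups overlapped. Of all tested genes, 32.1% were above in this way and 31.0% below, so that 63.1% did not overlap. At an unadjusted p under 0.05, 26 of 89 differed, where 39.1% of all tested genes did. In the authors' deposited table, 10 of the 91 were lower and none higher at an adjusted p under 0.05, where 6.91% of all genes with an adjusted p were lower and 4.49% higher.

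The counts and the median depended on which SGC-CBP30 library was used. The median change of the 89 genes was 0.02 when SGC-CBP30 replicate 2 was left out and -0.15 when replicate 1 of that group was left out. It was 0.02 when scaled by library totals, against -0.05 with all libraries and TMM. Without SGC-CBP30 replicate 2, 17 genes rose and 13 fell, where 13.6% of all tested genes rose and 15.9% fell. Without SGC-CBP30 replicate 1, 3 rose and 37 fell, where 11.9% of all genes rose and 15.7% fell. Without vehicle replicate 1, 2 rose and 6 fell (8.04% and 11.5% of all genes), and without vehicle replicate 2, 1 rose and 7 fell (7.98% and 10.8%). The scale mattered too. Scaling by library totals, which moved the median of all genes by 0.07, gave 7 that rose and 7 that fell (19.8% and 13.1%), and upper-quartile factors gave 5 and 10 (16.3% and 14.5%). With the gene-length trend of each library removed, 7 rose and 14 fell (14.4% and 17.5%), and DESeq2 called 1 higher and 10 lower (9.18% and 13.4%). A stricter filter, at least 50 counts in 2 libraries, gave 3 and 18 (16.1% and 20.3%), and no filter on low counts gave 3 and 12 (8.11% and 8.65%).

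**Figure D2:**
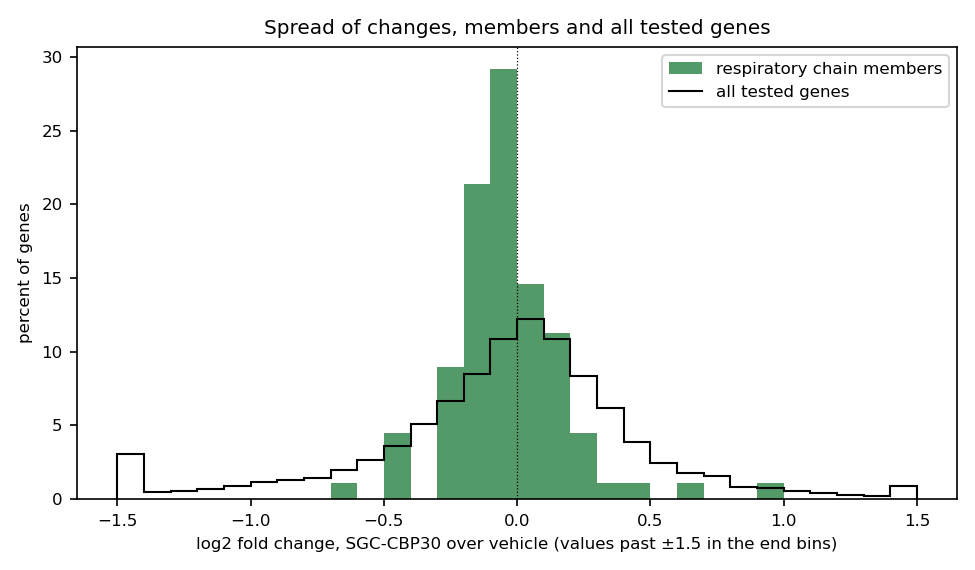
Percent of genes (y axis) in each bin of log2 fold change, SGC-CBP30 over vehicle (x axis, bins of 0.1, with values past 1.5 either way in the end bins), for the 89 tested respiratory chain genes (green bars) and all 14684 tested genes (black line). The respiratory chain genes stand in a narrower peak, with quartiles at -0.15 and 0.06.

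Complex I, the NADH dehydrogenase and the largest complex of the chain, had 44 tested genes, of which 2 rose and 4 fell. Of all tested genes, 13.6% rose and 16.3% fell. Shares of all tested genes at an unadjusted p, by DESeq2 and with each library left out are given above. The 44 genes of complex I had a median log2 fold change of -0.02. Without SGC-CBP30 replicate 2, 10 rose and 4 fell, and without SGC-CBP30 replicate 1, 1 rose and 10 fell. Without vehicle replicate 1, 1 rose and 2 fell, and without vehicle replicate 2, 1 rose and 1 fell. The 7 nuclear core subunits, most of which carry the flavin, the iron-sulphur centres or the quinone site, all had negative changes, with a median of -0.15. Changes were negative in 58 of all 89 tested respiratory chain genes and in 7167 of all 14684 tested genes. For Ndufs8 and Ndufv1 the sign turned under at least 1 alternative processing, with values up to 0.05 and 0.04. Of the 7, Ndufs1, the largest iron-sulphur subunit, fell. It had 124 and 125 CPM in SGC-CBP30 libraries, against 140 and 145 CPM in vehicle libraries, a log2 fold change of -0.19 ± 0.07 (SE, edgeR adjusted p = 0.0302). Both SGC-CBP30 values lay below both vehicle values. The call of Ndufs1 was lost in 6 of 11 alternatives: without vehicle replicate 1 (edgeR adjusted p = 0.171) or vehicle replicate 2 (0.349), when scaled by library totals (0.175) or upper-quartile factors (0.0771), with no filter on low counts (0.0614), and by DESeq2 (adjusted p = 0.0675). Eef1b2, on the opposite strand, overlaps Ndufs1 and held 213% of its counts. Overlaps here and below are of whole gene spans, and bases shared by exons were not measured. Strand use in the counting is not given in the sources used here.

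The 29 accessory subunits of complex I, which surround the core and stabilise it, had a median of 0.01, with 2 that fell and none that rose (at an unadjusted p under 0.05, 4 were lower and 1 higher, and DESeq2 called 1 lower and none higher). Ndufa6, a subunit of the LYR protein family, had 117 and 109 CPM in SGC-CBP30 libraries, against 127 and 140 CPM in vehicle libraries. Its groups did not overlap, and its change was -0.24 ± 0.07 (SE, edgeR adjusted p = 0.0127), with the call of Ndufa6 lost without vehicle replicate 2 (edgeR adjusted p = 0.349) or when scaled by library totals (0.0746). Ndufb5, a subunit of the membrane arm, had 60.6 and 64.7 CPM in SGC-CBP30 libraries, against 73.9 and 74.6 CPM in vehicle libraries. The change of Ndufb5 was -0.24 ± 0.08 (SE, edgeR adjusted p = 0.0181). Its call was lost without vehicle replicate 1 (edgeR adjusted p = 0.134) or replicate 2 (0.176), when scaled by library totals (0.0945) and by DESeq2 (adjusted p = 0.0612), and Mrpl47, which overlaps Ndufb5 on the opposite strand, held 23.0% of its counts. The accessory subunit with the most negative value, Ndufb2, had 5.28 and 5.86 CPM in SGC-CBP30 libraries, against 7.92 and 7.32 CPM in vehicle libraries, and was not called (-0.45 ± 0.20, edgeR adjusted p = 0.0988). Braf, which overlaps Ndufb2 on the opposite strand, held 456% of its counts.

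The 8 assembly factors of complex I, which build the complex and are no part of it, had the widest range of changes among the roles in complex I. Among them 2 rose and 1 fell, where 13.6% of all tested genes rose and 16.3% fell. They were also measured least finely, with a median SE of 0.15, against 0.10 for accessory and 0.07 for core subunits. Their median level was 5.38 FPKM, against 34.0 and 46.9 FPKM. Ndufaf4, which works with Ndufaf3 on assembly intermediates, fell. It had 21.5 and 23.7 CPM in SGC-CBP30 libraries, against 30.0 and 33.7 CPM in vehicle libraries, so that both SGC-CBP30 libraries stood below both vehicle libraries. Its change was -0.49 ± 0.11 (SE), or 1.41-fold lower (edgeR adjusted p = 0.00144), and the call held under all 11 alternative processings, with values of -0.58 to -0.41. Ndufaf7, an arginine methyltransferase, had 16.8 and 16.9 CPM in SGC-CBP30 libraries, against 9.78 and 14.3 CPM in vehicle libraries. It rose by 0.49 ± 0.16 (SE, edgeR adjusted p = 0.0199), but the vehicle libraries differed widely and the call was lost without vehicle replicate 1 (edgeR adjusted p = 0.396) and by DESeq2 (adjusted p = 0.0906). Ndufaf2, a chaperone of late assembly steps, had 6.28 and 4.89 CPM in SGC-CBP30 libraries, against 3.22 and 3.69 CPM in vehicle libraries. Ndufaf2 rose by 0.69 ± 0.25 (SE, edgeR adjusted p = 0.0399), with the call lost without SGC-CBP30 replicate 1 (0.284), vehicle replicate 1 (0.172) or vehicle replicate 2 (0.0536), and by DESeq2 (adjusted p = 0.139). Smim15, which overlaps Ndufaf2 on the opposite strand, held 1150% of its counts, and bases shared by their exons were not measured.

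**Figure D3:**
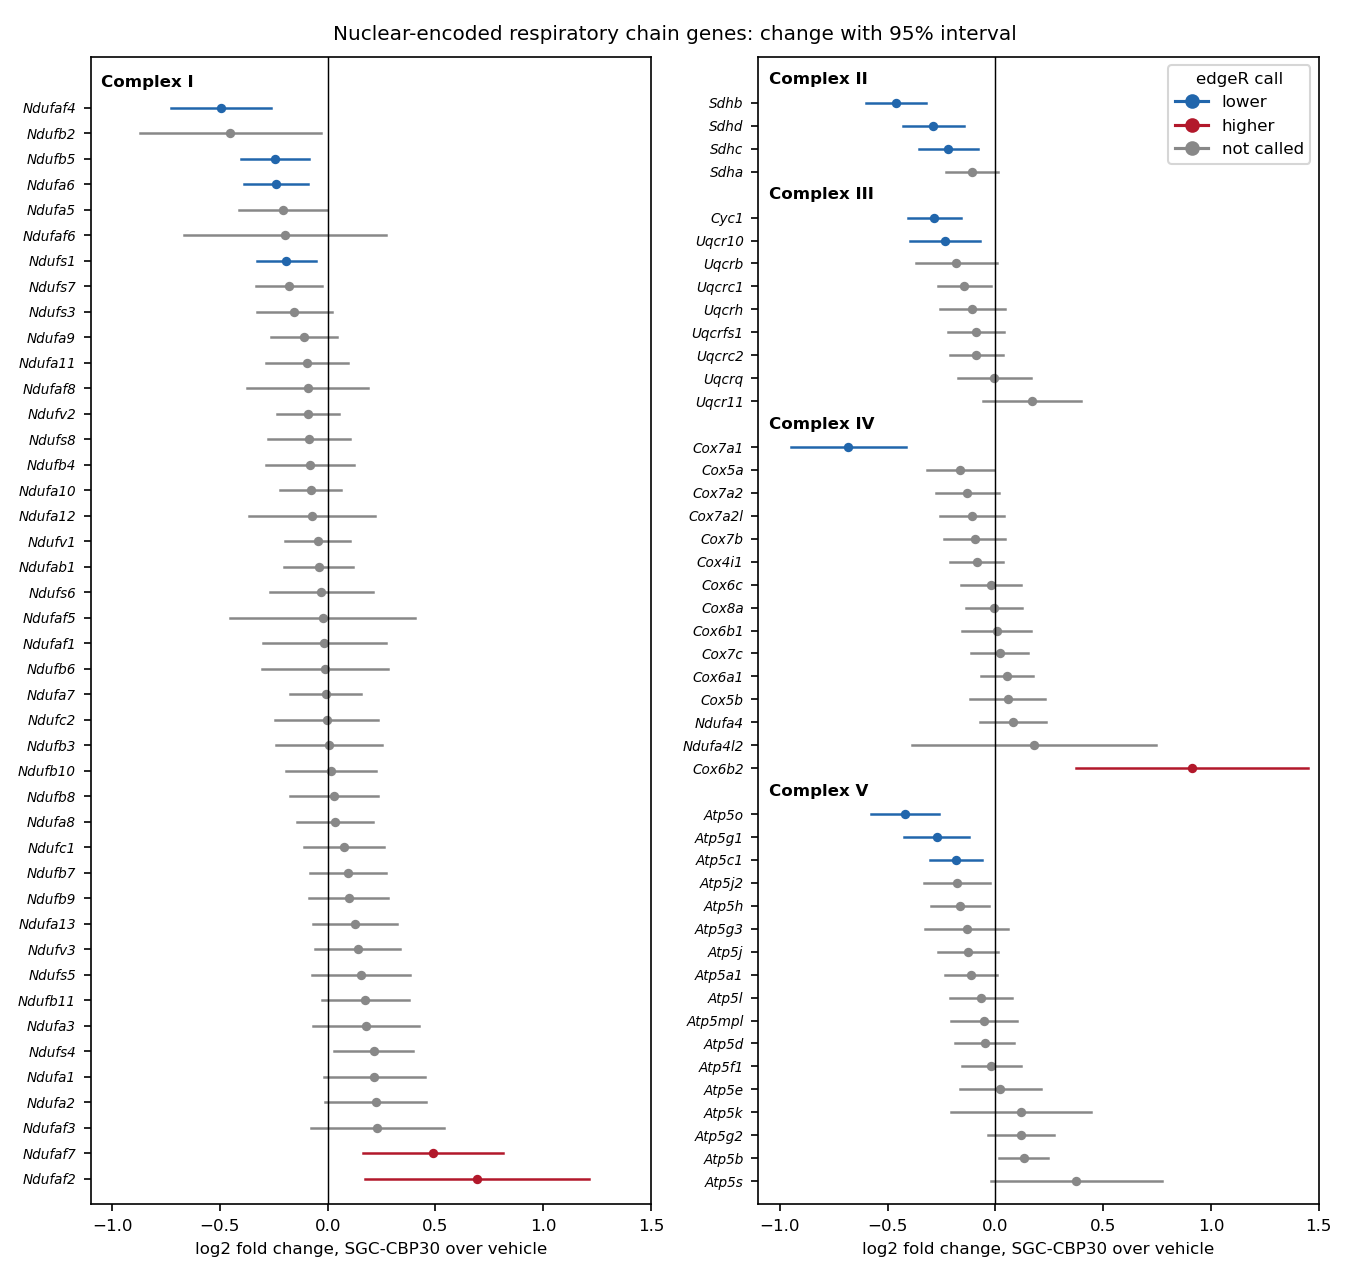
Log2 fold change of tested genes, SGC-CBP30 over vehicle (x axis), with its 95% interval, by complex and in order of change (y axis). Genes that fell by edgeR are blue, those that rose red and those not called grey. In complex II 3 of 4 genes are blue, and in complex IV Cox7a1 and Cox6b2 stand apart from the subunits between them.

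Complex II genes were lower after SGC-CBP30. Of its 4 genes, Sdhb, Sdhc and Sdhd fell, at 1.38-, 1.16- and 1.22-fold lower, and Sdha was lower without reaching the threshold, where 16.3% of all tested genes fell. All 4 had both SGC-CBP30 libraries below both vehicle libraries, an order that 31.0% of all tested genes had. The median change of the 4 genes was -0.25. Over the 11 alternative processings, 2 to 4 of the 4 fell and none rose, and the median ran from -0.36 to -0.16. Without SGC-CBP30 replicate 2, 3 fell, and without SGC-CBP30 replicate 1, 4 fell. Without vehicle replicate 1 or vehicle replicate 2, 2 fell, since Sdhc lost its call.

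Sdhb, the iron-sulphur subunit that passes electrons from the flavin of Sdha to the membrane, had the smallest p of the 89 genes. It lies on chromosome 4 (GRCm38 bases 140961203 to 140979193, plus strand). Its level was 153 and 145 CPM in SGC-CBP30 libraries, against 214 and 195 CPM in vehicle libraries. The libraries of each group lay closer together than the groups, with means of 149 ± 6.18 CPM and 205 ± 13.7 CPM (SD, n = 2 each). The log2 fold change was -0.46 ± 0.07 (SE, edgeR adjusted p = 8.23e-06), and it was called in all 11 alternatives, at -0.52 to -0.39. Sdhd, a membrane anchor that with Sdhc holds the haem and binds coenzyme Q, was the most abundant complex II gene per length, at 214 FPKM in SGC-CBP30 libraries and 261 FPKM in vehicle libraries. It had 286 and 243 CPM in SGC-CBP30 libraries, against 323 CPM in each vehicle library. Sdhd changed by -0.29 ± 0.07 (SE, edgeR adjusted p = 0.00214), and the call held in all 11 alternatives, at -0.42 to -0.17.

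Sdhc, the other membrane anchor, had 195 and 175 CPM in SGC-CBP30 libraries, against 214 and 216 CPM in vehicle libraries. Its change was -0.22 ± 0.07 (SE, edgeR adjusted p = 0.0134), with the call lost without vehicle replicate 1 (edgeR adjusted p = 0.139), without vehicle replicate 2 (0.183) and when scaled by library totals (0.0889). Sdha, the flavoprotein that oxidises succinate, had 460 and 436 CPM in SGC-CBP30 libraries, against 476 and 489 CPM in vehicle libraries, a change of -0.11 ± 0.06 (SE, edgeR adjusted p = 0.176). The Sdha interval, -0.23 to 0.01, leaves room for a decrease of up to 0.23 on the log2 scale. The FPKM ratio of Sdhb to Sdha was 0.615 and 0.611 in SGC-CBP30 libraries, against 0.830 and 0.735 in vehicle libraries. For Sdhc over Sdha it was 0.538 and 0.509 in SGC-CBP30 libraries, against 0.571 and 0.560 in vehicle libraries, and for Sdhd over Sdha 2.09 and 1.86, against 2.28 and 2.21. Differences between these ratios were not tested.

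The windows around the annotated starts of Sdhb and Sdhd are shown because these were the complex II genes whose calls held under every alternative, and because the letters searched for there are those of factors known to act on respiratory chain genes. Sequences are RefSeq promoters of GRCm38.p6, 250 bases before to 50 after the start, 5′ to 3′ on the gene's strand, chr4:140961021-140961320 (plus) for Sdhb and chr9:50603800-50604099 (minus) for Sdhd. Capitals mark GCATGCGC (NRF1), CCGGAAG (ETS factors, which include GABP) and AAGGTCA (oestrogen-related receptors, ERR), on either strand.
Sdhb: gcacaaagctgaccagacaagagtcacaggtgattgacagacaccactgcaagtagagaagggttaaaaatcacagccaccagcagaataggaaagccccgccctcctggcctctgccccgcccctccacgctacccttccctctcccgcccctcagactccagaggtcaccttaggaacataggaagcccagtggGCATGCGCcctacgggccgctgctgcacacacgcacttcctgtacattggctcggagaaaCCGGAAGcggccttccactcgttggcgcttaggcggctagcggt
Sdhd: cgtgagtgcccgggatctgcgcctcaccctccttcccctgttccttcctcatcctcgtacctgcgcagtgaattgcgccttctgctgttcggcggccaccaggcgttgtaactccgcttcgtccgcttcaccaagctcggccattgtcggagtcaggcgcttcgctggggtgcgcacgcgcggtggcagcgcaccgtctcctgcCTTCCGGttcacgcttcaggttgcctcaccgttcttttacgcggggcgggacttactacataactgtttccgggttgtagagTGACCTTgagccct
The Sdhb window holds NRF1 letters and ETS letters, and the Sdhd window ETS letters and ERR letters, both of them on the opposite strand. Sdhd shares its start region with Timm8b, an import chaperone gene that runs the other way from 98 bases off. Timm8b had 41.3 and 40.2 CPM in SGC-CBP30 libraries, against 35.6 and 36.9 CPM in vehicle libraries, and was not called at 0.17 ± 0.09 (SE, edgeR adjusted p = 0.183).

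**Figure D4:**
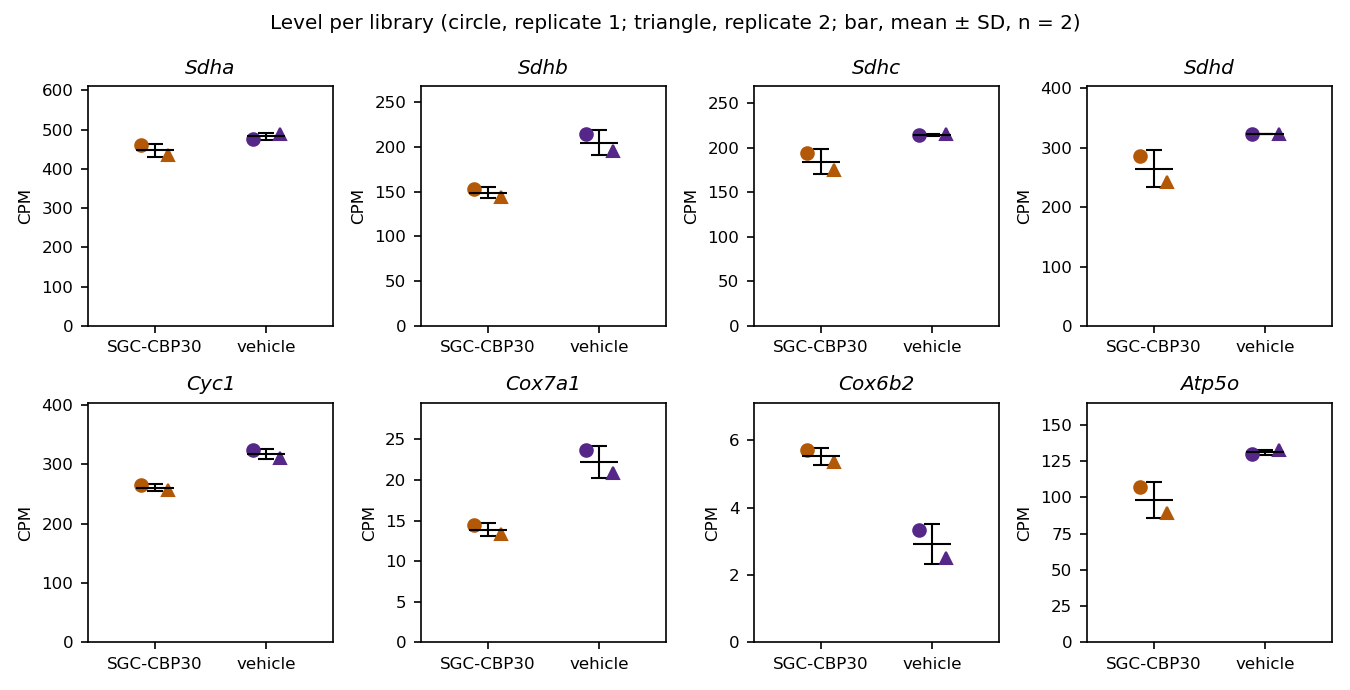
CPM (y axis, from 0) of Sdha, Sdhb, Sdhc, Sdhd, Cyc1, Cox7a1, Cox6b2 and Atp5o in SGC-CBP30 and vehicle libraries (x axis), with circles for replicate 1, triangles for replicate 2 and bars for the mean ± SD (n = 2). In each of these genes except Cox6b2 both SGC-CBP30 libraries lie below both vehicle libraries, and in Cox6b2 both lie above.

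Complex III, the cytochrome bc1 complex, had 9 tested genes, of which 2 fell and none rose. Of all tested genes, 16.3% fell and 13.6% rose. The median change of the 9 was -0.11. At an unadjusted p under 0.05, 3 of the 9 were lower and none higher, and DESeq2 called 1 lower and none higher. Without SGC-CBP30 replicate 2, 1 fell and 1 rose, without SGC-CBP30 replicate 1, 7 fell, and without vehicle replicates 1 and 2, 0 and 1 fell. Cyc1, cytochrome c1, which hands electrons to cytochrome c, had 265 and 257 CPM in SGC-CBP30 libraries, against 323 and 311 CPM in vehicle libraries. The groups did not overlap, with a change of -0.28 ± 0.06 (SE), or 1.22-fold lower (edgeR adjusted p = 0.000702). The call was lost without vehicle replicate 1 (edgeR adjusted p = 0.0701), at -0.31 to -0.21 over the alternatives. Uqcr10, a small subunit and the most abundant of the complex per length at 207 FPKM, had 123 and 101 CPM in SGC-CBP30 libraries, against 130 and 132 CPM in vehicle libraries. The decrease of Uqcr10 by 0.23 ± 0.08 (SE, edgeR adjusted p = 0.0282) rested on SGC-CBP30 replicate 2, without which it was -0.09 (edgeR adjusted p = 0.300), and it was also lost without vehicle replicate 1 (0.116) or replicate 2 (0.185), when scaled by library totals (0.125) or upper-quartile factors (0.0624), and by DESeq2 (adjusted p = 0.0754). The Rieske iron-sulphur protein Uqcrfs1, which passes electrons to Cyc1, overlapped between groups, at 270 and 245 CPM in SGC-CBP30 libraries and 279 and 268 CPM in vehicle libraries. The core proteins Uqcrc1 and Uqcrc2 lay lower without overlap but were not called, at -0.14 ± 0.06 and -0.09 ± 0.06.

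In complex IV, cytochrome c oxidase, 1 of 15 tested genes rose and 1 fell, where 13.6% of all tested genes rose and 16.3% fell. The calls fell on alternative isoforms and not on the main subunits. None of the 11 main or single-form subunits was called by edgeR or DESeq2 (at an unadjusted p under 0.05, 1 was lower and none higher), and the 95% intervals of all 11 lay within 1.5-fold. Their changes ran from -0.16 for Cox5a to 0.08 for Ndufa4, which is named after complex I but is a subunit of complex IV. Cox6a1, the most abundant gene of the whole chain per length at 603 FPKM, had 450 and 416 CPM in SGC-CBP30 libraries, against 418 and 416 CPM in vehicle libraries. The Cox6a1 groups overlapped, with a change of 0.05 ± 0.06 and an interval of -0.07 to 0.18. Cox4i1, the ubiquitous regulatory subunit 4, changed by -0.09 ± 0.06 and Cox8a by -0.01 ± 0.06. Cox6b1 depended on which SGC-CBP30 library was used: it had 197 and 160 CPM in SGC-CBP30 libraries, against 180 and 175 CPM in vehicle libraries, so that replicate 1 stood above and replicate 2 below both vehicle libraries. Without SGC-CBP30 replicate 2, 4 of the 15 tested complex IV genes rose and 1 fell, and without SGC-CBP30 replicate 1, 1 rose and 6 fell, against 1 and 1 with all libraries.

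The 2 complex IV genes that were called were isoforms best known from other tissues. Cox7a1, the isoform of subunit 7a typical of heart and skeletal muscle, had 14.4 and 13.3 CPM in SGC-CBP30 libraries, against 23.6 and 20.8 CPM in vehicle libraries. This was the largest decrease in the chain, at -0.68 ± 0.13 (SE), or 1.605-fold lower (edgeR adjusted p = 0.000237), and it held in all 11 alternatives, at -0.76 to -0.59. Its ubiquitous counterpart Cox7a2 had 104 and 98.4 CPM in SGC-CBP30 libraries, against 113 and 108 CPM in vehicle libraries, and was not called at -0.13 ± 0.07. By FPKM, Cox7a1 made up 19.7% and 19.3% of the sum of Cox7a1 and Cox7a2 in SGC-CBP30 libraries, against 26.9% and 25.5% in vehicle libraries. The muscle markers Acta2 and Des were at most 0.170 and 0.0587 CPM in any library. The related Cox7a2l was not called at -0.11 ± 0.07.

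Cox6b2, the isoform of subunit 6b typical of testis, moved the other way at a low level, with 5.69 and 5.35 CPM in SGC-CBP30 libraries, against 3.34 and 2.50 CPM in vehicle libraries. It was the largest increase in the chain, at 0.91 ± 0.26 (SE), or 1.88-fold higher (edgeR adjusted p = 0.00957), with the call lost without vehicle replicate 2 (edgeR adjusted p = 0.0819). By FPKM, Cox6b2 made up 1.82% and 2.09% of Cox6b1 and Cox6b2 together in SGC-CBP30 libraries, against 1.17% and 0.905% in vehicle libraries. Ndufa4l2, a hypoxia-responsive relative of Ndufa4, was not called at 0.18 ± 0.27. Shmt2, which overlaps Ndufa4l2 on the opposite strand, held 2393% of its counts. Cox4i2 and Cox6a2, typical of lung and of striated muscle, were not tested, with 4 and 2 counts of Cox4i2 in SGC-CBP30 libraries and 7 and 0 in vehicle libraries, and no count of Cox6a2 in SGC-CBP30 libraries and 1 in each vehicle library. Both lay near the floor of 3 counts, which is 0.166 to 0.183 CPM per library and covers counting error only.

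The start region of Cox7a1 is shown beside that of Ndufaf4, since both fell in every alternative while only the second window holds any of the letters searched for. The windows are chr7:30183921-30184220 (plus) for Cox7a1 and chr4:24897833-24898132 (plus) for Ndufaf4, from the same RefSeq table.
Cox7a1: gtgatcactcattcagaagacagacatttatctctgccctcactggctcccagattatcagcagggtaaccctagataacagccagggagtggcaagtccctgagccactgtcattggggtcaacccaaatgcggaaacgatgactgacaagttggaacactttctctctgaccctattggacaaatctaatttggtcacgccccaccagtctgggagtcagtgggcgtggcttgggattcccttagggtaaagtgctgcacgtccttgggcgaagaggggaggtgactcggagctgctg
Ndufaf4: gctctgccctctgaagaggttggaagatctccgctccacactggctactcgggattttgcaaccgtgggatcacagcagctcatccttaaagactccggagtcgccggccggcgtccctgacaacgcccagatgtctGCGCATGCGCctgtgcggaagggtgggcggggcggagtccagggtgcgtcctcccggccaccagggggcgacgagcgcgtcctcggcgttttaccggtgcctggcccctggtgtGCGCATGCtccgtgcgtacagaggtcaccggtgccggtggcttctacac
Capitals mark NRF1 letters on either strand, with 3 matches in Ndufaf4, of which 2 overlap as a palindrome read on both strands. Of the 91 genes, 74 matched a window, and 37 of these (50%) held letters of NRF1, ETS, YY1 (AAGATGGC) or ERR on either strand, where 28.6% of 9866 windows of the same length did. The shares were 16.2% against 5.41% for NRF1, 23.0% against 18.3% for ETS, 13.5% against 4.76% for YY1 and 10.8% against 3.22% for ERR. Such letters stood in 4 of the 10 genes that fell and had a window, and in 33 of the 61 that were not called. A match is a description of the sequence and does not show binding.

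Complex V, the ATP synthase, had 17 tested genes, of which 3 fell and none rose. Of all tested genes, 16.3% fell and 13.6% rose. The median change of the 17 was -0.07. At an unadjusted p under 0.05, 5 of the 17 were lower and 1 higher, and DESeq2 called 3 lower and none higher. Without SGC-CBP30 replicate 2, 4 fell and 2 rose, and without SGC-CBP30 replicate 1, 10 fell and 1 rose. Without vehicle replicate 1, 1 fell. In the peripheral stalk, which holds the catalytic head still, Atp5o, the subunit that confers oligomycin sensitivity, had 107 and 89.5 CPM in SGC-CBP30 libraries, against 130 and 132 CPM in vehicle libraries. Both SGC-CBP30 libraries were well below the vehicle libraries, at -0.42 ± 0.08 (SE), or 1.34-fold lower (edgeR adjusted p = 0.000171), and the call held in all 11 alternatives, at -0.56 to -0.30. The other 3 stalk genes were not called and also had negative values.

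In the F1 head and central stalk, 1 of 5 genes fell. Atp5c1, the rotating gamma subunit, had 295 and 296 CPM in SGC-CBP30 libraries, against 341 and 331 CPM in vehicle libraries. The change of Atp5c1 was small but larger than the spread, at -0.18 ± 0.06 (SE, edgeR adjusted p = 0.0195), and its call was lost without vehicle replicate 1 (edgeR adjusted p = 0.312) or replicate 2 (0.186), and when scaled by library totals (0.149) or upper-quartile factors (0.0572). The alpha and beta subunits, which form the catalytic hexamer in equal numbers, were the most abundant of the complex and moved in opposite directions without being called. Atp5a1 had 1556 and 1437 CPM in SGC-CBP30 libraries, against 1598 and 1639 CPM in vehicle libraries (-0.11 ± 0.06, edgeR adjusted p = 0.148). Atp5b had 1924 and 1858 CPM in SGC-CBP30 libraries, against 1734 and 1716 CPM in vehicle libraries (0.13 ± 0.06, edgeR adjusted p = 0.0751). The difference between the changes of Atp5a1 and Atp5b was not tested.

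The c ring, the rotor through which protons pass, is encoded by Atp5g1, Atp5g2 and Atp5g3, which yield the same mature protein. Atp5g1 fell, with 99.7 and 96.0 CPM in SGC-CBP30 libraries, against 125 and 111 CPM in vehicle libraries, a change of -0.27 ± 0.07 (SE, edgeR adjusted p = 0.00629) that was lost without vehicle replicate 1 (edgeR adjusted p = 0.280). Atp5g2 had 99.3 and 92.7 CPM in SGC-CBP30 libraries, against 90.8 and 85.8 CPM in vehicle libraries, and was not called at 0.12 ± 0.07. The major gene Atp5g3 had 494 and 392 CPM in SGC-CBP30 libraries, against 479 and 493 CPM in vehicle libraries, so that only SGC-CBP30 replicate 2 stood apart. By FPKM, Atp5g3 supplied 74.0% and 70.6% of the transcripts of the c ring in SGC-CBP30 libraries, against 73.4% and 75.4% in vehicle libraries. Atp5s, coupling factor B, had 9.63 and 7.91 CPM in SGC-CBP30 libraries, against 6.503 and 7.01 CPM in vehicle libraries, at 0.38 ± 0.19 (edgeR adjusted p = 0.152). Among the partners outside the naming rule, Atpif1, the inhibitor of ATP hydrolysis by the synthase, had 77.5 and 80.1 CPM in SGC-CBP30 libraries, against 99.9 and 101 CPM in vehicle libraries, and fell by 0.35 ± 0.07 (edgeR adjusted p = 0.000563), while Usmg5, a small membrane subunit, was not called at -0.17 ± 0.07.

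The mitochondrially encoded partners of complexes I, III, IV and V fell in most cases. Of 12 tested, 10 fell and none rose, with a median change of -0.31, where 16.3% of all tested genes fell and 13.6% rose. mt-Nd1, a membrane subunit of complex I, had 5973.5 and 6569 CPM in SGC-CBP30 libraries, against 8112.5 and 8277.5 CPM in vehicle libraries (-0.39 ± 0.06, edgeR adjusted p = 1.54e-05). mt-Cytb, cytochrome b of complex III, had 5574 and 6294 CPM in SGC-CBP30 libraries, against 7518 and 7602 CPM in vehicle libraries (-0.35 ± 0.06, edgeR adjusted p = 8.57e-05). In these genes SGC-CBP30 replicate 1 was the lower of the pair, with a median log2 ratio to replicate 2 of -0.16, where the nuclear genes had 0.15. Mitochondrial genes share reads with nuclear copies, so their counts are uncertain. Where 13.6% of all tested genes rose and 16.3% fell, 6 of the 77 mitochondrial ribosomal protein genes rose and 5 fell. The 77 genes had a median of 0.00. Of these, 11 rose and 3 fell without SGC-CBP30 replicate 2, and without SGC-CBP30 replicate 1, 1 rose and 11 fell. Leaving out vehicle replicate 2 gave 1 and 5.

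Genes that feed and build the chain gave mixed counts, to be read against the 16.3% of all tested genes that fell. Of 41 assembly factors outside the naming rule, 7 fell and 1 rose, among them Coa7, which helps to assemble complex IV, at -0.66 ± 0.12, and Coa5, another complex IV factor, at -0.38 ± 0.06. Without vehicle replicate 1 or vehicle replicate 2, 4 of the 41 fell. Of 9 mobile carriers and electron entry enzymes 2 fell, Prodh, proline dehydrogenase, at -1.20 ± 0.20, and Chdh, choline dehydrogenase, at -0.21 ± 0.06, whereas cytochrome c itself, Cycs, was not called at 0.11 ± 0.07. Of 13 coenzyme Q genes 4 fell and 1 rose. Coq8a, an atypical kinase needed for coenzyme Q synthesis, had 17.6 and 17.1 CPM in SGC-CBP30 libraries, against 58.8 and 56.8 CPM in vehicle libraries, and was 3.33-fold lower (-1.73 ± 0.10, edgeR adjusted p = 8.69e-13). Pdss1, which helps to make the isoprenoid tail, fell by 0.72 ± 0.10. Of 17 pyruvate dehydrogenase and citric acid cycle genes, the pathway in which complex II takes part, 6 fell and 1 rose, with a median of -0.09. Dlst, a subunit of the oxoglutarate dehydrogenase complex, fell by 0.44 ± 0.06, and Idh3a, a subunit of the NAD-dependent isocitrate dehydrogenase, by 0.40 ± 0.07.

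Among 19 tested regulators of mitochondrial biogenesis, 8 fell and 1 rose, with a median of -0.15, where 16.3% of all tested genes fell and 13.6% rose. Ppargc1a, the coactivator PGC-1alpha, which acts with NRF1, GABP and ERR factors on respiratory chain genes, had 13.4 and 17.9 CPM in SGC-CBP30 libraries, against 48.2 and 47.3 CPM in vehicle libraries. It was 3.05-fold lower (-1.61 ± 0.12, edgeR adjusted p = 1.02e-10), and both SGC-CBP30 libraries stood far below the vehicle libraries. Its relative Ppargc1b fell by 0.39 ± 0.11 (edgeR adjusted p = 0.0092), and Tfam, the mitochondrial DNA packaging and transcription factor, by 0.32 ± 0.10 (edgeR adjusted p = 0.0164). Of the DNA-binding regulators, Nrf1 (0.06 ± 0.11), Gabpa (-0.09 ± 0.08), Esrra (-0.10 ± 0.10) and Yy1 (-0.05 ± 0.07) were not called. These were named after their values were seen, and the remaining regulators of the list are not described here. Gabpa overlaps Atp5j on the opposite strand, with 3871 counts over all libraries against 8733 for Atp5j. The count of regulators that fell was 3 by DESeq2 and 2 without vehicle replicate 1.

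Other features of the genome bear on how these counts can be read. The 91 genes lie on 19 chromosomes, with at most 8 on any of them. They overlap another annotated gene in 38 cases, and in 15 of these the overlapping genes hold at least 10% as many counts as the gene itself. Processed pseudogenes named after these genes number 12, so reads of the parent and the copy may have been shared. Of the 89 tested genes, 31 (34.8%) have a neighbour that starts within 1000 bases and runs the other way, where 14.5% of 12476 tested protein-coding genes do. In 23 of the 31 pairs the changes had the same sign. Uqcr10 and Sdhd fell beside neighbours that were not called.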

How the data were processed

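The 4 libraries came from 1 deposited table. It holds the authors' raw counts of each gene, not normalized, and FPKM per gene length, per the file headers. The deposited log2 fold changes and p-values come from a test the authors do not name, and the deposited gene length is in bases. Per the submitters' processing notes, the tools were featureCounts 1.5.0-p3, HISAT2 2.0.5 and StringTie 1.3.3b, with roles, strand and multi-mapping not given in the sources used here, and the build is mm9. The coordinates are those of GRCm38 (98.5% of 51476 shared identifiers matched GENCODE M21) and are given as such, 1-based. The table stops within its last line, after genes without counts.

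SGC-CBP30 was compared with vehicle in edgeR 4.0.16 (R 4.3.3), with filterByExpr, TMM, robust dispersions, the quasi-likelihood F test and Benjamini-Hochberg adjustment over 14684 genes, with calls at an adjusted p under 0.05. The SE is the change divided by the square root of F. The code was tested on simulated data. Alternatives were DESeq2 1.42.0, library totals, upper-quartile factors, no filter, at least 50 counts in 2 libraries, a gene-length trend removed by loess, a replicate block and each library left out. The members, lists and motifs were chosen with earlier results of these data known. Genes named are, per complex, up to 3 called at either end, the highest per length, isoform pairs and untested genes, and up to 2 per other list. Ndufs1, Ndufb2, Ndufs8, Ndufv1, Sdha, Uqcrc1, Uqcrc2, Uqcrfs1, Cox5a, Atp5b, Atp5j, Atp5s, Usmg5, Cycs, Tfam, Nrf1, Gabpa, Esrra, Yy1, Timm8b, Mrpl47, Eef1b2, Smim15, Shmt2 and Braf were named after their values were seen. Some genes the rule names are not reported here. Counting floors cover counting error only.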

Additional observations from a re-analysis of the deposited data

How the results depend on the processing

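Of the 16 called genes, 5 kept their call in all 11 alternatives (Ndufaf4, Sdhb, Sdhd, Cox7a1 and Atp5o), and 8 that fell and 3 that rose lost it in at least 1. Of the 73 not called, 38 gained a call in at least 1. With DESeq2, 1244 genes rose in all, and 1 member rose; in complex I none rose and 2 fell, and in complex III 1 fell. With library totals as the scale, 7 members rose and 7 fell; 4 rose and 1 fell in complex I, 1 fell in complex III, and 2 rose in complex V, whose median became 0.0057. With upper-quartile factors 5 members rose, 1 fell in complex III and 1 rose in complex V. With the gene-length trend removed 7 members rose, 5 of them in complex I and 1 in complex V. With at least 50 counts in 2 libraries 5 fell in complex V. The cause of these shifts was not tested.

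Leaving out each library in turn gave 1235 to 2104 genes that rose in all, 1 to 17 members that rose and 6 to 37 that fell. By complex, 1 to 10 rose and 1 to 10 fell in complex I (median -0.12 to 0.070), 0 to 1 rose and 0 to 7 fell in complex III, 0 to 4 rose and 1 to 6 fell in complex IV, and 0 to 2 rose and 1 to 10 fell in complex V (median -0.17 to -0.0091). Cox6b1, at 0.01 with all libraries, was -0.15 without SGC-CBP30 replicate 1 (edgeR adjusted p = 0.0399) and 0.15 without SGC-CBP30 replicate 2 (0.0383). Replicate numbers are shared between groups, but same-numbered libraries did not deviate together (r = -0.02 across 14684 genes, which are not independent replicates), so the numbers are not shown to pair. With the replicate block 3 members rose and 14 fell, against 3 and 13 without it. With 2 libraries per group, and 14 members under 10 FPKM, depth limits the low genes most, such as Ndufaf2 and Cox6b2.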
